A study of Mus musculus with 12 samples.

Results

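GABA is the main inhibitory transmitter of the mature cortex. It is made from glutamate by glutamate decarboxylase, loaded into synaptic vesicles, sensed by ionotropic type A and metabotropic type B receptors, and cleared by membrane transporters and GABA transaminase. In the prefrontal cortex most of it comes from local interneurons, and the direction of the current through type A receptors depends on intracellular chloride, which cation-chloride cotransporters set. The 28 genes described here cover these steps: enzymes and transporters, receptor subunits, chloride carriers, postsynaptic scaffold and trafficking proteins, and genes that mark interneuron classes. They were chosen by name, and each was read through the probe set with the highest mean log2 intensity over all arrays among those annotated to that gene alone. Such a probe set was found for 27 of the 28 genes, out of 18193 genes with at least 1 probe set of their own, and all 27 were bright enough to be tested. Gabbr2, a type B receptor subunit, was not analysed here.

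RNA came from the prefrontal cortex of C57BL/6J mice, obtained at 10 weeks of age and kept under equal light and dark phases. Samples were taken at Zeitgeber times ZT3 and ZT9 (early and late light phase) and ZT15 and ZT21 (early and late dark phase), with 3 mice per time and 1 Mouse430_v2 array per mouse. There was no treatment or genotype difference, and the study asked which transcripts vary over the day. The dissected tissue holds many cell types, so fewer cells of a type and less RNA per cell cannot be told apart.

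Some properties of the arrays bear on these genes. Any pair of the 12 arrays correlated at 0.991 to 0.998 over all probe sets. The control probe sets for the 3′ and 5′ ends of Gapdh differed most in mouse 1 of ZT9, mouse 3 of ZT15 and mouse 3 of ZT21, by 0.31, 0.26 and 0.23 log2 units, against 0.10 to 0.19 on the other 9 arrays. The same 3 arrays had the largest 3′ to 5′ difference for Actb, 0.95, 0.84 and 0.88 log2 units against 0.66 to 0.79. By time, the Actb difference was 0.66 to 0.70 at ZT3, 0.69 to 0.95 at ZT9, 0.67 to 0.84 at ZT15 and 0.79 to 0.88 at ZT21, so that every ZT21 array was above every ZT3 array, while the Gapdh difference overlapped between those times (0.11 to 0.23 at ZT21 and 0.11 to 0.14 at ZT3). The 3 arrays named also received the lowest array weights (0.344, 0.389 and 0.389, against 0.490 to 3.73). Mouse 1 of ZT9 was the highest of all arrays for 13 of the 27 genes, whereas this held for 19.4% of all tested probe sets. Transcripts of choroid plexus were uneven, with Ttr at 14.82 in mouse 3 of ZT9 and 14.18 in mouse 1 of ZT15 against 9.22 to 12.40 elsewhere. Of 10 striatal markers tested and 10 astrocyte markers, 0 passed the F-test over time, nor did any of 7 oligodendrocyte, 8 microglial and 3 choroid plexus markers. Those that passed were 1 of 8 excitatory neuron markers, Neurod2 (adjusted p = 0.197, lowest mean at ZT3 and highest at ZT9), 1 of 5 endothelial markers, Cldn5 (0.0632, lowest at ZT9 and highest at ZT21), and 1 of 6 oligodendrocyte precursor markers, Gpr17 (0.196, lowest at ZT3 and highest at ZT21). In ZT21 minus ZT3, Neurod2, Neurod6, C1qb and Gpr17 were called higher, by 0.28, 0.43, 0.40 and 0.86, and Camk2a lower (difference -0.45). The mean log2 level of the 11 measured striatal markers ran over 6.94 to 7.34 at ZT3, 7.15 to 7.53 at ZT9, 7.16 to 7.28 at ZT15 and 7.02 to 7.34 at ZT21, overlapping between times. Of 10 olfactory bulb markers, 8, among them Th and Eomes, had means below the lowest mean log2 of 4.75 that was tested. The others, Cdhr1 and Lhx5, lay at 4.95 to 5.51 and 5.12 to 5.25 over the arrays and did not pass the F-test. The mean log2 level of 3 blood markers was 4.17 to 4.22 at ZT3, below every array of the other times. It ran over 4.40 to 4.66 at ZT9, 4.41 to 4.86 at ZT15 and 4.42 to 4.61 at ZT21, all near the lowest mean tested. Of the 3, only Alas2 was bright enough to be tested, and it did not pass the F-test (adjusted p = 0.416). The part of any of these in the values below was not tested.

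In the limma F-test over the 4 times, 0 of 27 reached an adjusted p under 0.20, the false discovery rate of the study, where 1.86% of the 25000 tested probe sets did. At an unadjusted p under 0.05 there were 2 of 27, Gabra5 and Dlx1, against 15.3% of all tested. SAM multiclass, the test named in the study's methods, was rerun on the 25000 tested probe sets. There 1 of 27 passed, again Gabra5 (q = 0.171), where 4.25% of all did. The study called a larger share in its own run, on probe sets filtered by detection calls. The range of a gene, meaning its highest minus its lowest time mean, had a median of 0.26 log2 units over the 27 genes, beside 0.27 over all tested probe sets. It was smallest in Gabarap and Lhx6 (0.08 each) and largest in Calb2 (0.56).

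The time of the highest mean leaned to ZT9. The mean was highest at ZT9 in 14 of 27 genes, where 28.9% of all tested probe sets were highest then, and at ZT3, ZT15 and ZT21 in 3, 6 and 4 genes (22.6%, 23.9% and 24.5% of all). It was lowest at ZT3 in 10, ZT9 in 2, ZT15 in 5 and ZT21 in 10 (38.5%, 15.8%, 15.7% and 30% of all). The count highest at ZT9 was 12 with quantile normalization (20.8% of all), 13 with arrays centred on their median (20.2%), and 10 without mouse 1 of ZT9 (28%). Between ZT9 and ZT3, 22 of 27 genes were higher at ZT9 and 5 lower, with a median difference of 0.19, beside 62.5% higher and a median of 0.06 over all tested. None of these ZT9 minus ZT3 differences passed the test (0 of 27, beside 0.092% of all), and 7 of 27 had an unadjusted p under 0.05, beside 11.5% of all. With quantile normalization the count was 19 higher (48.1% of all) and the median 0.07. With arrays centred on their median the count was 18 (45.9%) and the median 0.11. With the mean of all probe sets of a gene the count was 23 (62.5%) and the median 0.07. Without mouse 1 of ZT9 the count was 21 of 27 (60.6% of all) with a median of 0.11. Without mouse 2 it was 18 (57.6%) with 0.16, and without mouse 3 it was 23 (65%) with 0.29. In 8 genes (Gad1, Abat, Gabra4, Gabra5, Gabrb1, Slc12a5, Calb1 and Reln) all 3 mice of ZT9 were above all 3 of ZT3, where 12.9% of all tested did the same, and in 0 genes were they all below (4.12%).

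The other pairs of times share samples with that comparison and are given side by side. ZT15 minus ZT3 was above 0 in 17 of 27 genes, beside 59.4% of all tested, and in 10 of 27 with quantile normalization or median centring, beside 46.3% and 43.7% of all. ZT21 minus ZT9 was below 0 in 21 of 27 genes with a median of -0.17. Over all tested 56% were below 0 and 44% above, with a median of -0.02. Under those scalings it was below 0 in 19 and 20 genes, where 51.4% and 52.6% of all were above 0. At ZT15 all mice were above those of ZT3 in Gad1, Gabarapl1 and Dlx1 (3 of 27, 14.9% of all) and below in Lhx6 and Reln (2 of 27, 7.21%). At ZT21 they were all above those of ZT3 in Slc32a1, Gabra5, Calb2, Dlx1 and Reln (5 of 27, 17.7%) and below in Gabra2 (1 of 27, 10.8%). ZT15 mice lay wholly below ZT9 mice in Gabra5 and Reln (2 of 27, 5%) and above in 0 (4.42%). ZT21 mice lay wholly below ZT9 mice in Gabbr1 (1 of 27, 6.75%) and above in 0 (5.21%). Against ZT15, ZT21 mice were wholly above in Gabra5, Calb2 and Reln (3 of 27, 5.86%) and below in Gabra2 (1 of 27, 6.33%).

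**Figure D1:**
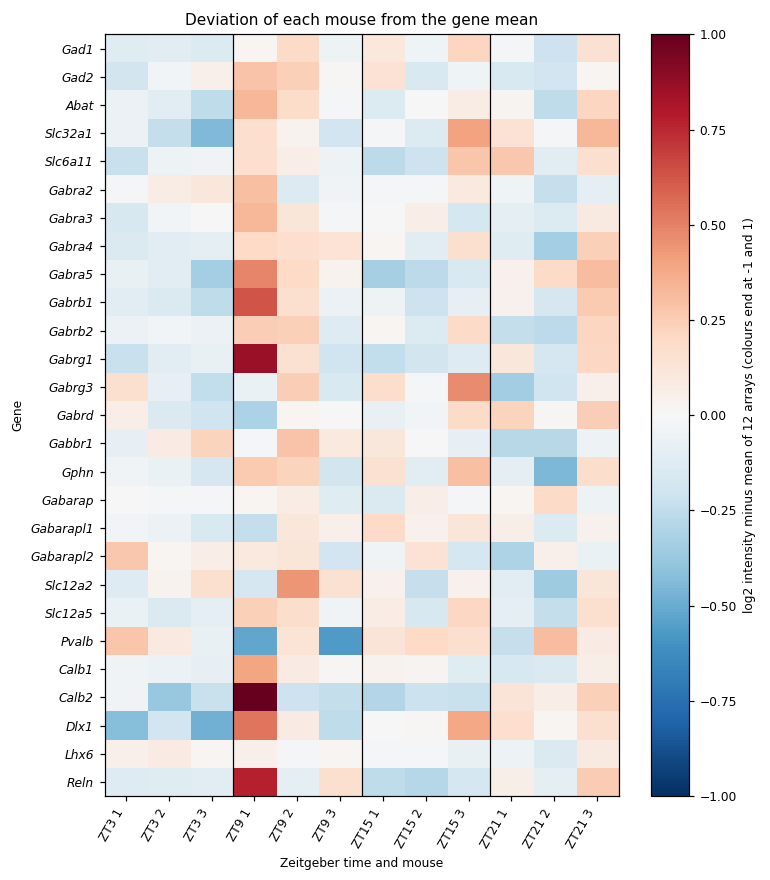
Each row is 1 of the 27 genes and each column 1 mouse, ordered by Zeitgeber time. Colour gives the log2 intensity minus the gene's mean over 12 arrays, red above and blue below; the column of mouse 1 of ZT9 holds the deepest reds, for Calb2, Gabrg1 and Reln.

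Of the genes that make and move GABA, none passed the F-test. Gad1 and Gad2 encode the paralogous glutamate decarboxylases, and Slc32a1 the vesicular transporter that fills synaptic vesicles with GABA. Gad1 had log2 intensities of 12.66, 12.68 and 12.65 at ZT3, 12.80, 12.98 and 12.73 at ZT9, 12.89, 12.74 and 13.00 at ZT15, and 12.77, 12.58 and 12.94 at ZT21. The ZT3 mice lay within 0.03 of each other, below every mouse of ZT9 and ZT15, but inside the range of ZT21. The range of the means was 0.21 ± 0.11 (SE), and Gad1 did not pass the F-test (adjusted p = 0.549, limma). Gad2 had 9.70, 9.85 and 9.93 at ZT3, 10.16, 10.12 and 9.90 at ZT9, 10.03, 9.73 and 9.84 at ZT15, and 9.73, 9.69 and 9.91 at ZT21. All times overlapped, with 2 of the 3 ZT9 mice above every mouse of the other times (adjusted p = 0.403 for the F-test).

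Slc32a1 had its lowest mean at ZT3 and its highest at ZT21. Its values were 9.10, 8.92 and 8.72 at ZT3, 9.33, 9.19 and 8.97 at ZT9, 9.14, 9.02 and 9.56 at ZT15, and 9.30, 9.14 and 9.49 at ZT21. The ZT21 mice were all above the ZT3 mice, and the difference between ZT21 and ZT3 was 0.40 (95% interval 0.05 to 0.75), which missed the threshold at an adjusted p of 0.212. Abat, the transaminase that breaks GABA down, averaged 9.87 ± 0.10, 10.18 ± 0.17, 9.99 ± 0.11 and 10.01 ± 0.24 at ZT3, ZT9, ZT15 and ZT21 (SD, n = 3 each). Slc6a11, a plasma membrane GABA transporter known mainly from astrocytes, averaged 8.62 ± 0.10, 8.78 ± 0.11, 8.66 ± 0.30 and 8.83 ± 0.19 at the same times. In their brightest probe sets all 5 of these genes had a higher mean at ZT9 than at ZT3, by 0.16 to 0.31. The difference was 0.04 to 0.19 with quantile normalization and 0.08 to 0.23 with centring, and 0 of 5 passed. The dimmer tested sets of Gad1 and Gad2 went the other way, at -0.11 each, and did not pass.

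Over the 12 arrays, Gad1 and Slc32a1 varied together. Pearson's r was 0.70 (permutation p = 0.0117, adjusted over 9 pairs 0.105) and Spearman's rho 0.78 (p = 0.00420, adjusted 0.0378), with r of 0.65 without the 2 arrays farthest from the Gad1 median and 0.70 on deviations from the time means. The arrays share their scaling, and r was 0.25 after quantile normalization and 0.45 after centring, so the relation did not hold at that size under either. Gad1 and Gad2 gave r = 0.52 (p = 0.0866, adjusted 0.251; rho = 0.48, p = 0.117, adjusted 0.282). The other 7 pairs had adjusted p of 0.251 or more for r.

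**Figure D2:**
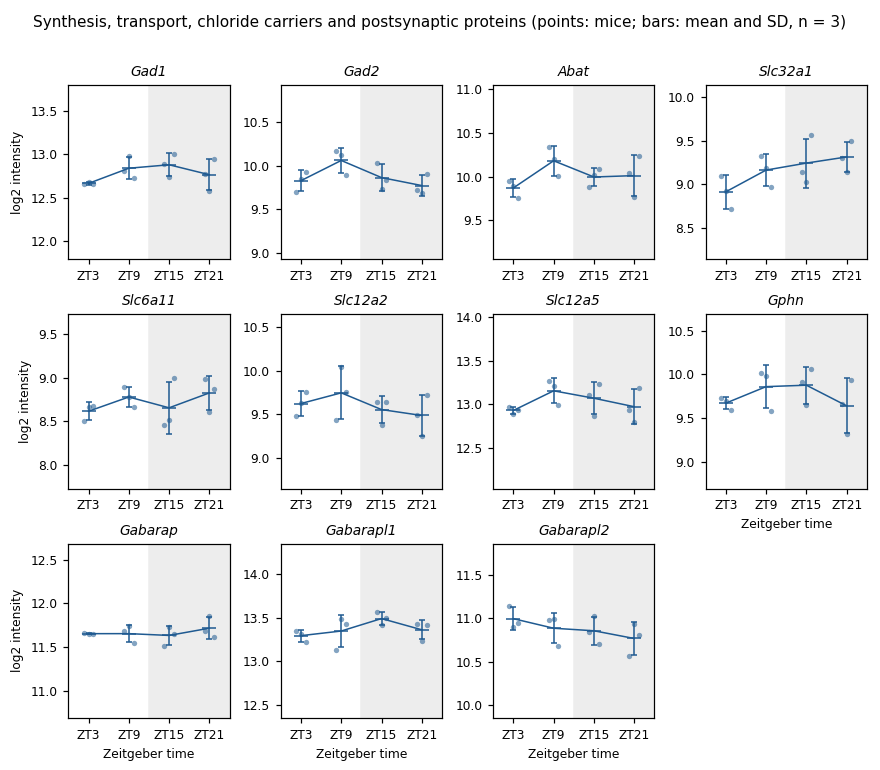
Log2 intensity (vertical axis, 1 panel per gene) against Zeitgeber time for synthesis and transport genes, chloride carriers and postsynaptic proteins; points are mice, bars the mean and SD of 3, and grey the dark phase. The error bars of most times overlap; the Gad1 points at ZT3 span 12.65 to 12.68.

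The Gad2 promoter window is shown because it holds a match to the core of the cAMP response element, TGACG, which was searched on both strands together with the E-box CACGTG and the D-box TTATGTAA, motifs known from clock-controlled genes. Windows ran from 250 bases before to 50 after each RefSeq transcript start (GRCm38.p6), and 22 of the 27 genes had at least 1 (30 windows). The capitals mark the match, which lies on the reverse strand.
Gad2 (chr2:22622077-22622376, plus strand): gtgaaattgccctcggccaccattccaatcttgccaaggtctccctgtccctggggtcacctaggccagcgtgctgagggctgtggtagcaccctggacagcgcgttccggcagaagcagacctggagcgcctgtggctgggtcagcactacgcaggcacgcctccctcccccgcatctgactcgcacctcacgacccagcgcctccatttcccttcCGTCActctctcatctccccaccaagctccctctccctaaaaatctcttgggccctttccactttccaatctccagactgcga
Of the 22 genes, 3 (Gad2, Gabrb2 and Gabarapl2) held TGACG in a window. CACGTG was found in 2 (Reln and Slc12a5) and TTATGTAA in 0. Among 32851 single windows of all genes the shares with a match were 20.8%, 7.15% and 0.938%. The counts are of genes, some with several windows, and the shares are of windows, so their units differ. A match describes the letters only.

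Among the type A receptor subunits, the one closest to a difference over the day was Gabra5, which encodes the alpha subunit known from tonic, extrasynaptic inhibition. Its values were 9.80, 9.76 and 9.53 at ZT3, 10.36, 10.07 and 9.91 at ZT9, 9.54, 9.61 and 9.72 at ZT15, and 9.91, 10.06 and 10.18 at ZT21. All 6 mice of the late times of either phase (9.91 to 10.36) were above all 6 of the early times (9.53 to 9.80). The range of the means, ZT15 to ZT9, was 0.49 ± 0.13 (SE), and the adjusted p of the F-test was 0.214 in limma, just outside 0.20. ZT21 was higher than ZT3 by 0.35 (95% interval 0.08 to 0.63, adjusted p = 0.188), which passed. Between the same times the Actb 3′ to 5′ difference did not overlap (0.79 to 0.88 at ZT21, 0.66 to 0.70 at ZT3), and its part in the call was not tested. The ZT9 minus ZT3 and ZT21 minus ZT15 differences, 0.42 and 0.43, did not pass (adjusted p = 0.371 for each), nor did ZT15 minus ZT9, at -0.49 (adjusted p = 0.285). Late minus early times of a phase, a contrast chosen after seeing the values, gave 0.42 (95% interval 0.22 to 0.62, adjusted p = 0.225), and dark minus light -0.07 (-0.26 to 0.13).

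Across processing choices the F-test of Gabra5 moved to either side of 0.20. It passed with quantile normalization (adjusted p = 0.101), median centring (0.130), the 15000 brightest probe sets (0.149) and without the 3 arrays of low weight (0.112), where 8.37%, 5.24%, 8.87% and 23.3% of all probe sets passed. The call between ZT21 and ZT3 was lost when any of 8 arrays was left out. These were mouse 2 or 3 of ZT3 (adjusted p = 0.410 and 0.486), mouse 2 of ZT9 (0.207), mouse 1 or 2 of ZT15 (0.206 and 0.225) and any mouse of ZT21 (0.350, 0.299 and 0.312). It was also lost with no filter on dim probe sets (adjusted p = 0.290, 0.564% of all called). The share of all probe sets called in that contrast changed too, from 11.5% with every array. It was 0.02% and 0.016% without mouse 2 or 3 of ZT3, and 0.092%, 0.02% and 10.2% without mouse 1, 2 or 3 of ZT21. Without mouse 2 of ZT9 it was 10.4%, and without mouse 1 or 2 of ZT15 it was 9.03% and 6.37%. Complete separation of late from early times, late higher, was seen in 2 of 27 genes, Gabra5 and Reln, and in 0.328% of all tested probe sets.

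Subunit genes of chromosome 5 lie near each other. On GRCm38.p6 Gabrg1 spans chr5:70751047-70842617, Gabra2 chr5:70958392-71095849, Gabra4 chr5:71569734-71658308 and Gabrb1 chr5:71657921-72149572, so that Gabra4 and Gabrb1, on opposite strands, share 388 bases at their starts. Gabra5 (chr7:57407669-57591016) lies 20.5 kb from Gabrg3 (chr7:56716463-57387215). Both genes with overlapping starts had their lowest mean at ZT3 and their highest at ZT9, in every tested probe set of theirs (2 of Gabra4 and 3 of Gabrb1). With quantile normalization or median centring the highest mean of the brightest sets stayed at ZT9, while the lowest was at ZT15 in Gabrb1 and, with centring, at ZT21 in Gabra4. Gabra4 had 11.18, 11.22 and 11.23 at ZT3, 11.53, 11.50 and 11.46 at ZT9, 11.34, 11.22 and 11.49 at ZT15, and 11.21, 10.98 and 11.56 at ZT21. Gabrb1 had 10.13, 10.09 and 9.99 at ZT3, 10.86, 10.40 and 10.18 at ZT9, 10.19, 10.03 and 10.16 at ZT15, and 10.28, 10.07 and 10.50 at ZT21. In both the ZT9 mice were all above the ZT3 mice, and in neither did the difference of 0.29 and 0.41 pass (adjusted p = 0.432 and 0.393). Without the 3 arrays of low weight, Gabra4 passed the F-test (adjusted p = 0.155), as did 23.3% of all probe sets.

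The promoter windows of these subunit genes are printed to show the genes that came closest to the threshold or share their start region. No capitals appear because none of the motifs was found in them.
Gabra5 (chr7:57510010-57510309, minus strand): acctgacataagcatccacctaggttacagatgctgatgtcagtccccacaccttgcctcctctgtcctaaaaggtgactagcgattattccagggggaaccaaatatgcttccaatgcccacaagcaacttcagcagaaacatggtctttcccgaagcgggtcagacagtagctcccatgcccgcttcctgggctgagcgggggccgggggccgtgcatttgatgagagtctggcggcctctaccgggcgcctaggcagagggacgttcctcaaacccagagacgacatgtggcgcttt
Gabra4 (chr5:71658259-71658558, minus strand): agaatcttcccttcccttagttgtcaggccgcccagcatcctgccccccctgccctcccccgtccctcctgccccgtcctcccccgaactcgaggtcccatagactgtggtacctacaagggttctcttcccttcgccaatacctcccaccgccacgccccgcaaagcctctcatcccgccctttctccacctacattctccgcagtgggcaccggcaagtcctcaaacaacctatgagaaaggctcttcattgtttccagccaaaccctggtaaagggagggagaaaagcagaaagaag
Gabrb1 (chr5:71657671-71657970, plus strand): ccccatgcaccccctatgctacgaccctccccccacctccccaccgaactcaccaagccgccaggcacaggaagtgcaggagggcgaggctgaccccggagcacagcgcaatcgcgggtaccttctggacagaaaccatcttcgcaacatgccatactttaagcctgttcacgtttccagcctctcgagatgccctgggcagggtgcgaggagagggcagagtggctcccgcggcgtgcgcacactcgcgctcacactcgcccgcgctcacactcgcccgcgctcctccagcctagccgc
The windows of Gabra4 and Gabrb1 were read on opposite strands around their shared start region.

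None of the other type A subunits passed the F-test. Gabrg1, a gamma subunit, averaged 8.01 ± 0.08, 8.42 ± 0.54, 7.96 ± 0.06 and 8.20 ± 0.20 at ZT3, ZT9, ZT15 and ZT21, and its ZT9 mean contained mouse 1 at 9.01 with the other mice at 8.30 and 7.95. Gabra2 and Gabra3, alpha subunits of synaptic receptors, stayed within 8.83 to 9.00 and 9.70 to 9.90 in their means. Gabrb2, the beta subunit of many cortical receptors, had means of 11.53 to 11.75, and Gabrg3 of 6.83 to 7.21. Gabrd, the delta subunit of extrasynaptic receptors, averaged 9.37 ± 0.14, 9.36 ± 0.19, 9.49 ± 0.14 and 9.62 ± 0.13 at ZT3, ZT9, ZT15 and ZT21. Adjusted p values of the F-test were 0.457 to 0.697 for the brightest sets of these 6 genes. Gabrd had the largest dark minus light difference among them, 0.19 (95% interval 0.00 to 0.38, adjusted p = 0.329).

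Gabbr1, the ligand-binding subunit of the type B receptor, had its lowest mean at ZT21 in the brightest probe set. That set had 11.74, 11.91 and 12.05 at ZT3, 11.81, 12.11 and 11.92 at ZT9, 11.94, 11.82 and 11.75 at ZT15, and 11.55, 11.55 and 11.78 at ZT21. The ZT21 mice were all below the ZT9 mice, and overlapped those of ZT3 and ZT15. ZT21 minus ZT9 was -0.32 (95% interval -0.57 to -0.07, adjusted p = 0.293), and 0 of 27 genes passed in that contrast (0.036% of all), with 3 at an unadjusted p under 0.05 (13.2% of all). Dark minus light was -0.19 (-0.37 to -0.02, adjusted p = 0.297). Without the 3 arrays of low weight, this set passed the F-test (adjusted p = 0.134), as did 23.3% of all probe sets. The 2 other tested Gabbr1 sets did not share its pattern in full. The first was lowest at ZT3 and highest at ZT15 (means 11.59 and 11.77), with ZT21 minus ZT9 at -0.04 and dark minus light at 0.07, while the other was highest at ZT3 and lowest at ZT21 (10.44 and 10.09), with -0.27 and -0.22.

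**Figure D3:**
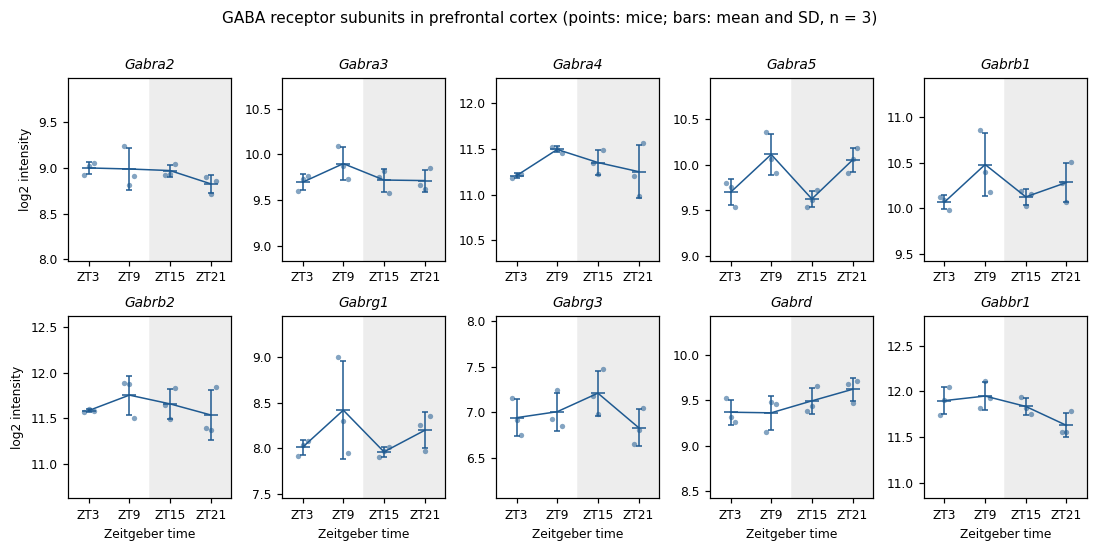
Log2 intensity (vertical axis, 1 panel per gene) against Zeitgeber time for 9 type A receptor subunits and Gabbr1; points are mice, bars the mean and SD of 3, and grey the dark phase. In Gabra5 the ZT9 and ZT21 mice (9.91 to 10.36) all sit above the ZT3 and ZT15 mice (9.53 to 9.80).

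Gphn encodes gephyrin, the scaffold of inhibitory synapses, and Gabarap and its paralogs encode ubiquitin-like proteins that take part in receptor trafficking and autophagy. Gabarap differed least of the 4 and averaged 11.65 ± 0.01, 11.65 ± 0.10, 11.63 ± 0.11 and 11.72 ± 0.12 at ZT3, ZT9, ZT15 and ZT21. Gabarapl1 had its highest mean at ZT15, 13.49 ± 0.08, beside 13.29 ± 0.07 at ZT3, with no overlap between those times. Gabarapl2 averaged 11.00 ± 0.13, 10.89 ± 0.17, 10.86 ± 0.16 and 10.77 ± 0.18 at ZT3, ZT9, ZT15 and ZT21. Gphn averaged 9.67 ± 0.07, 9.86 ± 0.24, 9.88 ± 0.21 and 9.64 ± 0.31 at ZT3, ZT9, ZT15 and ZT21. Their F-test adjusted p values ran over 0.594 to 0.906, and 0 of 4 passed.

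The chloride carriers act in opposite directions, Slc12a2 bringing chloride into the cell and Slc12a5, a neuronal carrier, taking it out. Slc12a5 had 12.96, 12.88 and 12.94 at ZT3, 13.27, 13.21 and 12.99 at ZT9, 13.10, 12.87 and 13.24 at ZT15, and 12.93, 12.80 and 13.19 at ZT21. The ZT9 mice were above the ZT3 mice, by 0.23 in the mean (adjusted p = 0.482). In the dimmer tested set of Slc12a5 ZT9 minus ZT3 was -0.12 (adjusted p = 0.841). Slc12a2, which the choroid plexus also expresses, had 9.47, 9.63 and 9.76 at ZT3, 9.43, 10.04 and 9.76 at ZT9, 9.64, 9.37 and 9.64 at ZT15, and 9.49, 9.25 and 9.72 at ZT21. All times overlapped. The arrays with the highest Ttr, mouse 3 of ZT9 and mouse 1 of ZT15, were at 9.76 and 9.64. The part of choroid plexus in the Slc12a2 values was not tested.

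Of the genes that mark interneuron classes, Dlx1, a homeobox factor of interneuron development and maintenance, was lowest at ZT3. Its values were 7.12, 7.35 and 7.06 at ZT3, 8.08, 7.62 and 7.29 at ZT9, 7.55, 7.55 and 7.93 at ZT15, and 7.71, 7.56 and 7.70 at ZT21. Every ZT15 and ZT21 mouse was above every ZT3 mouse, while 1 ZT9 mouse fell within the ZT3 values. ZT21 was higher than ZT3 by 0.48 (95% interval 0.09 to 0.87, adjusted p = 0.194), which passed, in the contrast whose arrays also differ in the Actb 3′ to 5′ value given above. ZT15 minus ZT3 and ZT9 minus ZT3 were 0.50 and 0.49 (adjusted p = 0.297 and 0.381), and the F-test gave an adjusted p of 0.315. The call between ZT21 and ZT3 was lost when any of 9 arrays was left out, namely any mouse of ZT3 (adjusted p = 0.256, 0.408 and 0.478), mouse 2 of ZT9 (0.215), mouse 1 or 2 of ZT15 (0.212 and 0.228) or any mouse of ZT21 (0.379, 0.279 and 0.286). It was also lost with no filter (adjusted p = 0.323) and with a trended robust prior (0.202), where 0.564% and 10.3% of all were called. Without mouse 1 of ZT3, 13.5% of all were called, and the shares without the other arrays are given with Gabra5 above. Gabra5 and Dlx1 were the 2 of 27 genes called in ZT21 minus ZT3, where 7.1% of all tested probe sets were called higher and 4.37% lower (11.5% in all), so the share was near that of all probe sets. At an unadjusted p under 0.05 there were 4 of 27, beside 19.1% of all. For ZT15 minus ZT3, 0 of 27 were called, beside 2.52% of all, with 1 at an unadjusted p under 0.05 (12.5% of all). For ZT15 minus ZT9 it was 0 (0.58%), with 4 at an unadjusted p under 0.05 (7.14%), and for ZT21 minus ZT15 it was 0 (0.204%), with 2 (9.58%).

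Reln, which encodes reelin, a secreted protein of cortical interneurons, separated the late from the early times. It had 10.03, 10.03 and 10.05 at ZT3, 10.94, 10.07 and 10.32 at ZT9, 9.90, 9.87 and 9.99 at ZT15, and 10.22, 10.06 and 10.41 at ZT21. All ZT9 and ZT21 mice were above all ZT3 and ZT15 mice, at the closest 10.06 against 10.05. The late minus early difference was 0.36 (95% interval 0.08 to 0.63, adjusted p = 0.417). In that contrast 0 of 27 passed (0.204% of all), 3 had an unadjusted p under 0.05 (10%), and 0 had all late mice below the early ones (0.128%). For Reln the F-test gave an adjusted p of 0.337. The windows of Dlx1 and Reln are shown as the interneuron genes with a called contrast or with an E-box, whose letters are the capitals.
Dlx1 (chr2:71529195-71529494, plus strand): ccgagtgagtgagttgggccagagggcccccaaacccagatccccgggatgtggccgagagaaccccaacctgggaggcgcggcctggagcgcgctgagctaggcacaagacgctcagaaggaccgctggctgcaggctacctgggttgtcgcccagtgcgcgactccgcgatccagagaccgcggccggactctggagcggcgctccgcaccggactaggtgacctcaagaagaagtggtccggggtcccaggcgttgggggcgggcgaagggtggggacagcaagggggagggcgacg
Reln (chr5:22344656-22344955, minus strand): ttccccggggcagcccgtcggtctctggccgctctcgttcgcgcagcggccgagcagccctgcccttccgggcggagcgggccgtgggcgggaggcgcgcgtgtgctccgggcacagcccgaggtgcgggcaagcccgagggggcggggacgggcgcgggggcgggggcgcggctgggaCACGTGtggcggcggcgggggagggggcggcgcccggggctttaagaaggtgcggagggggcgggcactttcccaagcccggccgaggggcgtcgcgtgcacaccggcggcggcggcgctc
The Reln match began at base 180 of the window, and the Dlx1 window held none of the motifs.

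Pvalb and Calb2, the calcium-binding proteins of separate interneuron classes, each had ZT9 mice that lay far apart. Pvalb had 10.23, 10.05 and 9.88 at ZT3, 9.43, 10.09 and 9.39 at ZT9, 10.08, 10.15 and 10.11 at ZT15, and 9.73, 10.26 and 10.03 at ZT21. Mice 1 and 3 of ZT9 were the lowest of all 12 and mouse 2 was within the other times. ZT9 minus ZT3 was -0.42 (95% interval -0.82 to -0.01, adjusted p = 0.427), the lowest of the 27 genes in that contrast. Calb2 had 6.57, 6.22 and 6.38 at ZT3, 7.98, 6.40 and 6.36 at ZT9, 6.31, 6.38 and 6.38 at ZT15, and 6.74, 6.67 and 6.84 at ZT21. Its high ZT9 mean came from mouse 1 alone, and without that mouse the ZT21 mice were above all others and the F-test passed (adjusted p = 0.150, 11.7% of all tested). Calb1, another calcium-binding protein that pyramidal cells also hold, averaged 11.10 ± 0.02, 11.32 ± 0.20, 11.14 ± 0.09 and 11.08 ± 0.12 at ZT3, ZT9, ZT15 and ZT21. Lhx6, a transcription factor of parvalbumin and somatostatin cells, averaged 7.72 ± 0.03, 7.69 ± 0.03, 7.64 ± 0.03 and 7.63 ± 0.12 at ZT3, ZT9, ZT15 and ZT21.

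**Figure D4:**
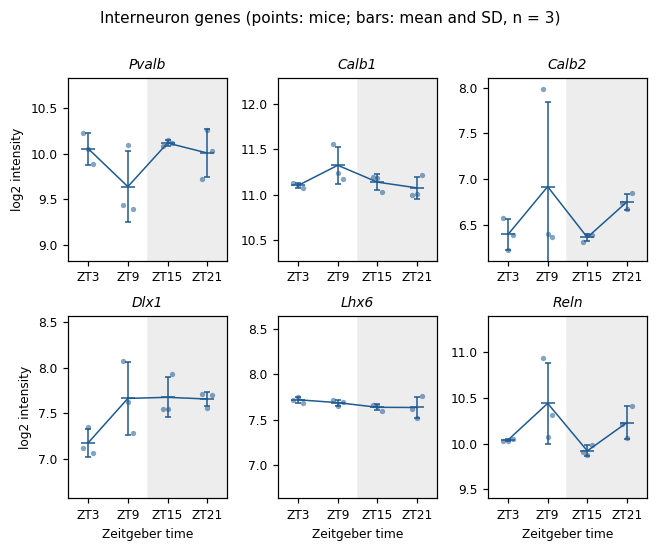
Log2 intensity (vertical axis, 1 panel per gene) against Zeitgeber time for 6 interneuron genes; points are mice, bars the mean and SD of 3, and grey the dark phase. Calb2 at ZT9 holds mouse 1 at 7.98 apart from 6.40 and 6.36, and Lhx6 stays between 7.52 and 7.76.

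For the dark phase against the light phase, 0 of 27 genes passed, where 2.34% of all tested did, and 1 had an unadjusted p under 0.05 (15.2% of all). The differences ran from -0.19 for Gabbr1 to 0.25 for Dlx1, with 9 genes higher and 18 lower in the dark, and a median of -0.07 beside 0.01 over all tested. The widest interval was that of Calb2, -0.61 to 0.41. A miss of the threshold does not show equal levels. The change into the dark was also compared between early and late times, as ZT15 minus ZT3 less ZT21 minus ZT9. This was above 0 in 20 genes, with a median of 0.19, beside 64% above 0 and a median of 0.09 over all tested. With quantile normalization it was 17 genes (49.1% of all) and a median of 0.04, with centring 19 (47.2%) and 0.08. In this contrast 0 of 27 passed (0.068% of all), with 0 at an unadjusted p under 0.05 (10.7% of all).

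Other probe sets of the same genes gave a different picture for some. Besides the 27 brightest, 26 probe sets of 16 genes were tested, and 0 passed the F-test (smallest adjusted p 0.220, for Gabrg1). That dimmer Gabrg1 set averaged 5.96, 6.53, 6.12 and 5.43 at ZT3, ZT9, ZT15 and ZT21. Its ZT21 mice (5.33 to 5.57) were below all ZT3 and ZT9 mice (5.83 to 6.86) and overlapped those of ZT15. Its ZT21 minus ZT3 difference was -0.53 (adjusted p = 0.257), against 0.18 in the brightest Gabrg1 set (0.656), and neither passed. Both sets had their highest mean at ZT9. Only 10 of the 26 had their highest mean at the same time as the brightest one. In ZT21 minus ZT3, 4 of the 26 were called, all lower at ZT21 (4.37% of all called lower), and 0 higher. The Actb 3′ to 5′ difference was 0.79 to 0.88 on the ZT21 arrays, all above the 0.66 to 0.70 of the ZT3 arrays, and its part in these calls was not tested. The called sets belonged to Gad2, Gabra2, Gabrb2 and Slc12a2. The dimmest Gabrb2 probe set had 8.64, 9.04 and 8.91 at ZT3, 8.09, 8.87 and 8.90 at ZT9, 8.60, 8.61 and 7.67 at ZT15, and 8.04, 7.83 and 7.83 at ZT21. It was lower at ZT21 than at ZT3 by 0.96 (difference -0.96, adjusted p = 0.156), with no overlap, while the brightest Gabrb2 probe set differed by -0.05 (adjusted p = 0.885). Its low values at ZT9 and ZT15 were those of mouse 1 and mouse 3, the arrays with the largest 3′ to 5′ difference, whose part in it was not tested. The other dimmer Gabrb2 sets differed by -0.19, -0.09 and -0.10 between ZT21 and ZT3 and were not called. The called sets of Gad2, Gabra2 and Slc12a2 differed by -0.51, -0.52 and -0.54 (adjusted p = 0.163, 0.157 and 0.174), against -0.06, -0.17 and -0.14 in the brightest. That difference between probe sets was not tested. A further Gabra2 set went the other way, at 0.16, and a further Slc12a2 set gave -0.37 (adjusted p = 0.694 and 0.335). For Gad1 the dimmer set was highest at ZT3 and lowest at ZT21 (11.21 and 10.69 in the means), whereas the brightest was lowest at ZT3. The genes with a single tested probe set, 11 in all, include Gabra5, Dlx1, Pvalb, Calb2, Lhx6 and Reln, and have no such comparison.

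**Figure D5:**
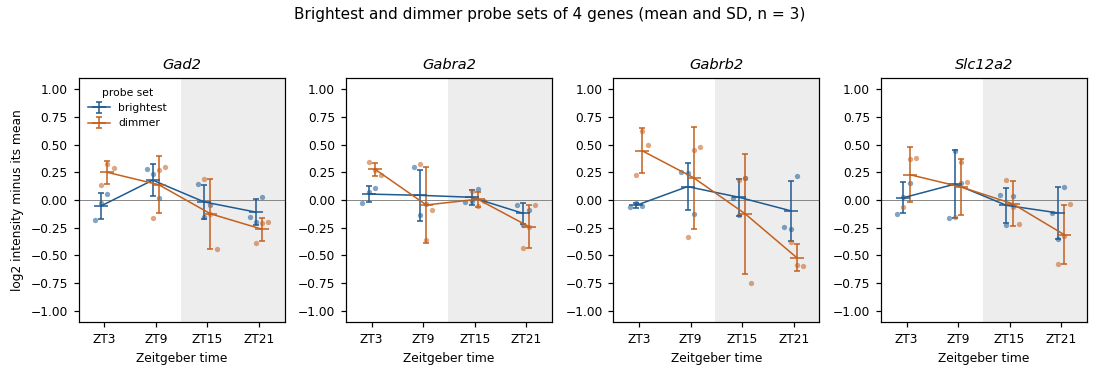
Log2 intensity minus its own mean over 12 arrays (vertical axis) against Zeitgeber time for the brightest probe set (blue) and a dimmer one (orange) of 4 genes; points are mice, bars the mean and SD of 3, and grey the dark phase. The dimmer sets shown are those called in ZT21 minus ZT3. They have their lowest mean at ZT21, 0.96 below ZT3 for Gabrb2, while the brightest vary by 0.29 or less.

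Further genes of the pathway were taken from fixed lists. Of 106 tested, 1 passed the F-test, beside 1.86% of all probe sets, namely Crh, the peptide corticotropin-releasing hormone, which some cortical interneurons make. At an unadjusted p under 0.05 there were 12 of 106, beside 15.3% of all. In ZT21 minus ZT3, 8 of 106 were called, 6 higher and 2 lower, beside 11.5% of all (7.1% higher and 4.37% lower). The genes named for that contrast are thus no larger a share than among all probe sets. Without mouse 2 or 3 of ZT3, or mouse 1 or 2 of ZT21, that contrast called only 0.016% to 0.092% of all. The calls of single pathway genes with an array left out are not given here. The Actb 3′ to 5′ values of those times also did not overlap, and their part in these calls was not tested. The median range of the 106 was 0.27, beside 0.27 over all tested. Crh averaged 8.73 ± 0.15 at ZT3, 8.34 ± 0.24 at ZT9, 9.21 ± 0.42 at ZT15 and 9.34 ± 0.02 at ZT21, with an adjusted p of 0.125 and a dark minus light difference of 0.74 (95% interval 0.46 to 1.03, adjusted p = 0.0618). It was thus higher in the dark phase than in the light phase. Among 38 interneuron genes Crh and Kcnc1, a fast potassium channel, were higher and Erbb4, a neuregulin receptor, lower at ZT21 than at ZT3, with differences of 0.61, 0.47 and -0.79 (adjusted p = 0.159, 0.181 and 0.159). Hapln1, a link protein of perineuronal nets, was next in the F-test (adjusted p = 0.257).

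Among 11 genes of GABA and glutamine metabolism and transport 0 passed the F-test, with 1 at an unadjusted p under 0.05. Slc38a2, a glutamine carrier, was 0.52 higher at ZT15 than at ZT3 (adjusted p = 0.155), Slc38a3, an astrocytic glutamine carrier, 0.40 higher at ZT21 than at ZT3 (adjusted p = 0.174), and Got1, the cytosolic aspartate aminotransferase, 0.35 lower (difference -0.35, adjusted p = 0.196). Slc1a1, a neuronal glutamate transporter, had an F-test adjusted p of 0.329. Of 13 genes of chloride and bicarbonate regulation, Oxsr1, a kinase that acts on cation-chloride cotransporters, and Slc4a3, an anion exchanger, were higher at ZT21 than at ZT3 by 0.27 and 0.36 (adjusted p = 0.195 and 0.174), and 0 passed the F-test, with 2 at an unadjusted p under 0.05. Slc4a10, a bicarbonate transporter, had the smallest F-test p of that list (adjusted 0.282).

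Of 16 partners of the Gabarap family, Map1lc3a, an autophagy protein of the same fold, was higher at ZT21 than at ZT3 by 0.45 (adjusted p = 0.156), while Atg4d, a protease of that family, had an F-test adjusted p of 0.328. Among 25 genes of the inhibitory postsynapse and its trafficking 0 passed the F-test or a contrast, with 4 at an unadjusted p under 0.05 in the F-test. The smallest p values there were those of Nsf, the vesicle fusion ATPase (adjusted p = 0.287), and Lhfpl3 (0.297). Of 3 further receptor genes, 0 passed, with Kctd8 and Kctd16, auxiliary proteins of type B receptors, at adjusted p of 0.539 and 0.798.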

How the data were processed

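Members and lists were chosen with earlier results of these data known. The authors hybridised 1 array per mouse and deposited intensity values per probe set, computed with GCRMA on a linear scale; per the labels MAS5 was used too, for detection calls that were not used here. Array batches and scan times are not given here. Each value was converted to log2, and 0 values lay below the floor of 1. Of 45037 probe sets 34945 carried 1 gene symbol, 932 several and 9160 none; the 25000 with the highest mean were tested, since the detection calls were not used. limma 3.58.1 (R 4.3.3) gave the F-test over 4 times and two-sided contrasts, with all 12 arrays sharing the spread and Benjamini-Hochberg adjustment over 25000 probe sets at 0.20. The script was tested on simulated data. Correlations used 100000 permutations, two-sided. All members are described; of the pathway lists, genes past the F-test and the 2 with the smallest p per list are named, and those past a contrast were added after their values were seen. Replicates are separate mice. Alternatives were quantile normalization, median centring, no filter, 15000 brightest probe sets, a trended robust prior, array weights, a replicate block, the mean of a gene's probe sets, SAM, and leaving out arrays; leaving out the 3 arrays of low weight was chosen after seeing the data. Array number and signal over background limit precision. Positions and promoters are from RefSeq, GRCm38.p6.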

Additional observations from a re-analysis of the deposited data

How the results depend on the processing

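With 3 mice per time, small differences cannot be resolved, and probe sets near background have compressed log2 differences. The number of members past each test changed with the processing. In the F-test and in ZT21 minus ZT3 it did so mostly along with the number of all probe sets. For the other contrasts the share of all probe sets under these alternatives is not given. Their counts therefore cannot be read as more or less than the share of all. In the F-test, 1 member (Gabra5) passed with quantile normalization, median centring, the 15000 brightest probe sets and SAM. Without the 3 arrays of low weight 5 passed (Gabra4, Gabra5, Gabbr1, Slc12a2 and Dlx1, beside 23.3% of all probe sets), and 19 with array weights (59.3% of all). Leaving out 1 array gave 0 to 3 members. There were 3 without mouse 1 of ZT9 (11.7% of all probe sets) and 1 without mouse 3 of ZT15 (5.36%). Without mouse 3 of ZT9 (5.43%) or of ZT21 (11.4%) there were 2. Array weights gave 7 members for dark minus light, 12 for ZT9 minus ZT3, 2 for ZT15 minus ZT3, 1 for ZT15 minus ZT9, 10 for ZT21 minus ZT3 (46.3% of all), 12 for ZT21 minus ZT9, 6 for ZT21 minus ZT15, 9 for late minus early times and 10 for ZT15 minus ZT3 less ZT21 minus ZT9. Without the 3 arrays of low weight these were 3 for dark minus light, 5 for ZT21 minus ZT3 (26.3% of all), 7 for ZT21 minus ZT9, 3 for ZT21 minus ZT15, 1 for late minus early times and 2 for the last contrast. Quantile normalization gave 1, 4, 1 and 1 for ZT15 minus ZT9, ZT21 minus ZT3, ZT21 minus ZT15 and late minus early times, median centring 1, 4 and 1 for ZT15 minus ZT9, ZT21 minus ZT3 and late minus early, and the 15000 brightest probe sets 1 for late minus early. For ZT21 minus ZT3, no filter gave 0 (0.564% of all), the trended prior 1 (10.3%) and a threshold of 0.05 gave 0. With quantile normalization and centring 20.2% and 16.3% of all passed in that contrast. Leaving out 1 array gave 0 to 3 members for dark minus light (3 without mouse 1 of ZT9), 0 to 7 for ZT9 minus ZT3 (7 without mouse 3 of ZT9), 0 to 1 for ZT15 minus ZT3 (1 without mouse 1 or 3 of ZT9), 0 to 1 for ZT15 minus ZT9 (1 without mouse 2 or 3 of ZT9), 0 to 5 for ZT21 minus ZT3 (5 without mouse 1 of ZT9, 1 without mouse 3 of ZT21, and 0 without mouse 2 or 3 of ZT3, 2 of ZT9, 1 or 2 of ZT15, 1 or 2 of ZT21), 0 to 5 for ZT21 minus ZT9 (5 without mouse 3 of ZT21, 2 without mouse 1 of ZT9), 0 to 1 for late minus early times (1 without mouse 3 of ZT9 or of ZT15) and 0 to 1 for the last contrast (1 without mouse 3 of ZT21). The F-test passed 1.86% of all probe sets with every array, 11.7% without mouse 1 of ZT9, 11.4% without mouse 3 of ZT21 and 0.16% without mouse 2 of ZT3. ZT21 minus ZT3 called 11.5% of all with every array, 20.3% without mouse 1 of ZT9 and 0.016% without mouse 3 of ZT3. The cause of these changes was not tested. Median centring moved the median of all genes by -0.11 log2 units in the last contrast and by less elsewhere.

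Arrays with the same replicate number correlated at -0.50 to 0.48 (mean -0.04) in their deviations from the time means. Arrays of different numbers correlated at -0.39 to 0.59 (mean 0.03), and 3 of 12 arrays correlated best with their own number. No pairing of mice by number was seen in these values, which cannot show that no batch follows the number. With the number as a replicate block, 97 probe sets in all passed the F-test against 466 without it, 0 members passed it, and the members called in ZT21 minus ZT3 were 0, with adjusted p of 0.258 for Gabra5 and 0.260 for Dlx1. The correlation of Gad1 with Gad2 was -0.0259 with quantile normalization. That of Gad1 with Pvalb was -0.186 with quantile normalization, -0.0928 with centring and -0.0859 to 0.199 without 1 array, against 0.0122 as reported. Gad2 with Slc32a1 gave -0.609 and -0.400 with these scalings and -0.0521 to 0.175 without 1 array, against 0.0824. Without 1 array, Gad1 with Slc32a1 ran over 0.592 to 0.777, Slc12a5 with Slc12a2 over 0.322 to 0.695 and Gabra2 with Gabra5 over -0.748 to 0.127, the last at -0.748 without mouse 1 of ZT9.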
